A study of Mus musculus with 9 samples.

Results

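The genes described here are 10 heat shock chaperones of the cytosol and the mitochondrion: Hspa1a, Hspa1b, Dnajb1, Hspb1, Hsph1, Hsp90aa1, Hspa8, Hsp90ab1, Hspd1 and Hspe1. They were chosen by name, with each gene identifier of the count tables matched to its symbol, and they are 10 of 56262 genes listed and 10 of 16595 genes that passed the filter on low counts. RNA was sequenced from cells sorted as LT-HSCs (long-term hematopoietic stem cells, the rare marrow cells that sustain blood formation) of wild-type C57BL/6 mice, in 3 groups of 3 libraries. Control mice were untreated. The mice of both other groups received 250 mg/kg of 5-FU (5-fluorouracil, which is toxic to cells in cycle). One of these groups, 5-FU+Saline, then got saline, called PBS in the series text, and the other, 5-FU+FMT, got FMT, an agent that the labels do not spell out, at 5 mg/kg into a vein 1, 4 and 7 days later. Cells of the treated mice were taken on day 8, and no day is given for Control. The cells were gated as lineage-negative, Sca1+, c-Kit+, CD150+ and, as the labels write it, C48-. The labels give neither the sex or age of the mice nor whether a library came from 1 mouse or several, so p-values measure the spread between these libraries, which may be technical.

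Chaperones bind unfolded or partly folded proteins and help them reach or keep their fold. Cells keep constitutive forms at high level at all times, such as the HSP70 Hspa8 and the HSP90 Hsp90ab1, and add inducible forms, such as Hspa1a, Hspa1b, Hspb1 and Dnajb1, when the transcription factor HSF1 binds heat shock elements in their promoters. Heat, proteotoxic drugs and the handling of tissue can all raise the inducible forms, and blood stem cells are known to be sensitive to disturbed protein folding.

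A heat shock element is a run of GAA units in alternating direction, and promoters are shown because HSF1 is known to act on these genes through such elements. RefSeq windows on GRCm38.p6, from 250 bases before to 50 bases after the annotated start, were at hand for 7 of the 10 members, and those of Hspa8, Hsp90aa1 and Hsp90ab1 are not among them. Capitals mark a match to the 2-unit element, GAA and TTC in either order with 2 bases of any kind (NN) between them, or, in the Hspe1 and Hsph1 lines, to the 3-unit element, in which a further unit of the first kind follows after NN. The longer element contains the shorter one. Both strands were searched. The first 4 lines end on the base before the annotated start, and they were added after values had been seen. They cover chr17:34972157-34972406 (minus strand), chr17:34959239-34959488 (minus), chr5:135887669-135887918 (plus) and chr8:83607972-83608174 (plus), and none of them overlaps an annotated exon. The Hspe1 line is chr1:55088053-55088082 (plus) and the Hsph1 line chr5:149636287-149636308 (minus), and both lie in annotated exons.
Hspa1a: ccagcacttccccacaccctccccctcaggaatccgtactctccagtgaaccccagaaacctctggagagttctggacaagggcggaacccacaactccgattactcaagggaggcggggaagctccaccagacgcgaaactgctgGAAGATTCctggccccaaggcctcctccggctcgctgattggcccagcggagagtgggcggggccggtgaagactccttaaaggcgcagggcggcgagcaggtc
Hspa1b: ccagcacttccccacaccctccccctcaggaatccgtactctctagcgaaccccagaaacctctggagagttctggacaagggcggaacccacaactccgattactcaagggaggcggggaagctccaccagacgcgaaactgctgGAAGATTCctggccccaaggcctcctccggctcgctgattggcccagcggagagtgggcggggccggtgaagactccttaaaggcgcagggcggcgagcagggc
Hspb1: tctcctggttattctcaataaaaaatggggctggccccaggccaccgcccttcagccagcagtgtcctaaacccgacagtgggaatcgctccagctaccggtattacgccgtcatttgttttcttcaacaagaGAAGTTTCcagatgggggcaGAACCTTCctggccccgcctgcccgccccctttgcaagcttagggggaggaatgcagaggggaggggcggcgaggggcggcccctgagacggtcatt
Dnajb1: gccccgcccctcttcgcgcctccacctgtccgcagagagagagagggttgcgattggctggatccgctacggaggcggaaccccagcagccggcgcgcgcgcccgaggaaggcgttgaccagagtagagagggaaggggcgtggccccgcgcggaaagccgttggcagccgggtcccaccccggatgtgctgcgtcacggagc
Hspe1: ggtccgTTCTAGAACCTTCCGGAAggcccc
Hsph1: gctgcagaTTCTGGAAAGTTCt
Hspa1a and Hspa1b carried the same 2-unit match at -104 to -97, and their 250 upstream bases differed at 3 positions (98.8% identical). Hspb1 carried 2 such matches, at -117 and at -97, and Hsph1 carried 1 before the first of its annotated starts, at -33 to -26. Neither Dnajb1 window held one, and the second Dnajb1 window lies mostly in an exon of Dnajb1 itself. The 2-unit letters occurred in 15.1% of the 32851 RefSeq windows of 300 bases. The 3-unit letters occurred in 0.603% of them, and among the members they were found in Hsph1, 37 to 49 bases after the start, and where Hspe1 and Hspd1 begin. Those 2 genes are transcribed away from each other, and a single run of 18 bases at chr1:55088059-55088076 holds 2 overlapping 3-unit matches, in the Hspe1 window and in the second of the 2 Hspd1 windows. The first Hspd1 window held none. A match describes letters in a window and is not a measured binding site.

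Total counts per library were 11098031 to 19270976, and 22813 to 24237 genes were detected. Set against sampling noise by a chi-square over genes, divided by its degrees of freedom, the 9 pairs of libraries within a group gave 2.14 to 2.56 and the 27 pairs across groups 23.3 to 131, so no library was a copy of another. The groups also differed in RNA that marks other cells. Levels are given as CPM, the counts scaled to library size and, by TMM, to library composition. All 10 neutrophil markers had counts in every group, and their summed level was 2272 to 2309 CPM in Control, 159 to 177 after 5-FU+Saline and 868 to 989 after 5-FU+FMT. Gene by gene they were mixed, with 5 of 10 higher and 4 lower in 5-FU+Saline against Control. The 12 erythroid markers summed to 1257 to 1282, 466 to 478 and 789 to 822 CPM in the same order, with 11 of 12 lower in 5-FU+Saline. The 10 B cell markers, all higher in 5-FU+Saline, ran the other way, at 60.6 to 62.1, 987 to 998 and 466 to 508 CPM, as did the 10 stroma markers (9 higher) at 62.9 to 64.1, 272 to 278 and 83.9 to 89.7 CPM, of which Col3a1 was at 0 in Control. Among the gate's own genes, Slamf1 (CD150) was at 8.35 CPM ± 1.16 in Control, 34.5 ± 2.06 after 5-FU+Saline and 24.4 ± 1.76 after 5-FU+FMT (SD, n = 3 each), and Cd48 was present at 30.7 ± 1.27, 53.7 ± 0.557 and 46.7 ± 1.53 CPM. Ly6a (Sca1) was at 97.2 ± 7.27, 118 ± 2.41 and 108 ± 6.71 CPM, while Kit went the other way, at 754 ± 6.41, 410 ± 7.08 and 537 ± 6.84 CPM. Of 14 LT-HSC and gate genes, 5 were higher, 7 lower and 2 not called in 5-FU+Saline against Control. Xist, the RNA of the inactive X chromosome, was at 0.870 CPM ± 0.421 in Control, 1201 ± 20.2 after 5-FU+Saline and 682 ± 19.8 after 5-FU+FMT, while Y-linked Ddx3y was at 168 ± 4.23, 38.9 ± 2.58 and 100.04 ± 2.28 CPM (SD, n = 3 each). Every treated library held both RNAs, with Xist at 1183 to 1223 CPM and Ddx3y at 37.1 to 41.9 CPM after 5-FU+Saline. After 5-FU+FMT they were at 659 to 695 and 98.0 to 102 CPM. Whether these libraries pooled mice of both sexes was not tested. The part of the differences between groups in the chaperone results was not tested, and the make-up by sex and the treatment cannot be told apart. In sorted bulk cells, fewer cells with an RNA and less of that RNA per cell cannot be told apart either.

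The question put to these genes was how inducible and constitutive chaperones differed across untreated, 5-FU-treated and FMT-treated mice. In 5-FU+Saline, 5 of the 6 inducible cytosolic members were lower than in Control, from 1.61-fold for Hsph1 to 146-fold for Hspa1b, and the sixth, Hsp90aa1, was 1.26-fold higher. Both constitutive cytosolic members and both mitochondrial members were higher, by 1.10-fold to 1.42-fold. In 5-FU+FMT all 10 members had mean levels between those of the other groups. Calls rest on edgeR's quasi-likelihood test, fitted over all genes and all 9 libraries, with Benjamini-Hochberg adjustment and a threshold of 0.05, and every adjusted p of a gene here is from that fit. The test called 10 of 10 members in 5-FU+Saline against Control, where it called 65.5% of all genes tested. It called 10 of 10 in 5-FU+FMT against 5-FU+Saline, where 36.9% of all genes were called, and 9 of 10 in 5-FU+FMT against Control, where 46.6% were. The members were split evenly or nearly so, with 5 higher and 5 lower in 5-FU+Saline against Control (32.8% and 32.7% of all genes), 5 and 5 in 5-FU+FMT against 5-FU+Saline (17.7% and 19.2%) and 4 and 5 in 5-FU+FMT against Control (25% and 21.6%). Libraries of the groups compared did not overlap for 10, 9 and 9 members, beside 67.8%, 46.3% and 52.7% of all genes. By size, 4 members (Hspa1a, Hspa1b, Hspb1 and Dnajb1) were called and at least 2-fold lower in 5-FU+Saline, as were 11.2% of all genes. No member was at least 2-fold higher there, beside 6.51% of all genes. In 5-FU+FMT against 5-FU+Saline 3 members (Hspa1a, Hspa1b and Hspb1) were at least 2-fold higher, beside 3.53% of all genes, and the same 3 were at least 2-fold lower in 5-FU+FMT than in Control, beside 3.2%.

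**Figure D1:**
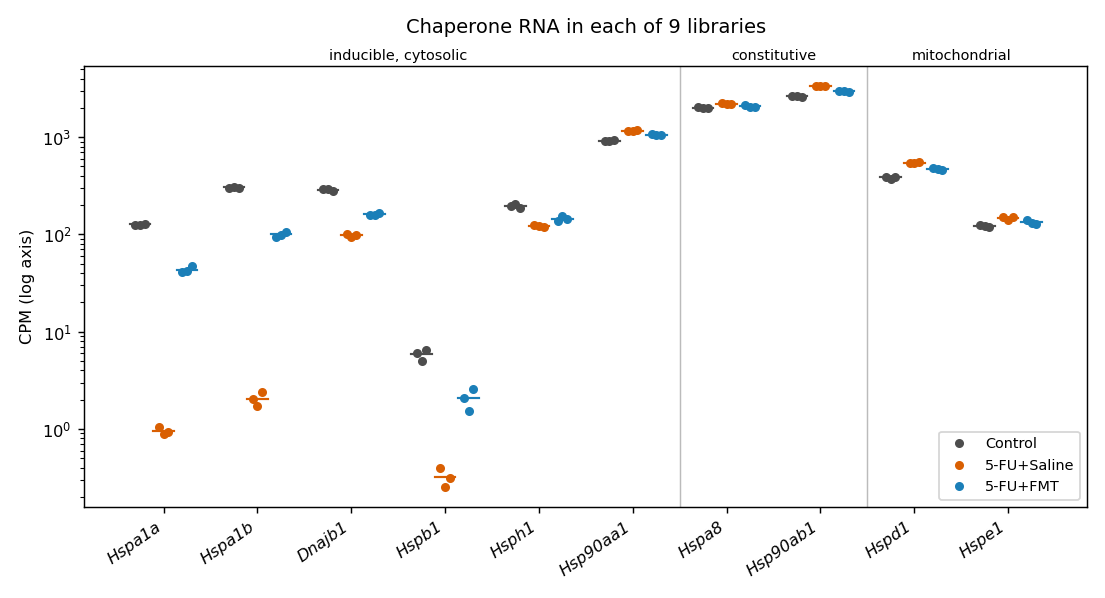
Level of each chaperone in each library, in CPM on a log axis, with the 3 libraries of a group as points and their mean as a line. Hspa1a, Hspa1b and Hspb1 spread over more than a decade between the groups, and the group means of the 4 constitutive and mitochondrial genes and of Hsp90aa1 stay within 1.42-fold.

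Hspa1a and Hspa1b encode the inducible cytosolic HSP70, from neighbouring genes at chr17:34969190-34972156 and chr17:34956436-34959238 (mm10, minus strand). Hspa1a was at 126, 125 and 127 CPM in the Control libraries, at 1.06, 0.891 and 0.929 after 5-FU+Saline and at 40.8, 42.0 and 47.0 after 5-FU+FMT. Hspa1b was at 301, 308 and 303 CPM in Control, at 2.05, 1.72 and 2.38 after 5-FU+Saline and at 94.8, 99.4 and 106 after 5-FU+FMT. For both genes every Control library was high, every 5-FU+Saline library was under 3 CPM, 5-FU+FMT lay between, and no groups overlapped. The 5-FU+Saline values rest on 16, 14 and 18 read pairs for Hspa1a and on 31, 27 and 46 for Hspa1b, against 1368 to 2389 and 3358 to 5679 in Control. Hspa1a fell in 5-FU+Saline with a log2 fold change of -7.03 ± 0.11 (SE, adjusted p 6.32e-64), and Hspa1b with -7.19 ± 0.07 (SE, adjusted p 2.98e-76). Ordered from the lowest fold change, Hspa1b was number 23 and Hspa1a number 28 of the 16595 genes tested. Against 5-FU+Saline, the 5-FU+FMT libraries held 44.8-fold more Hspa1a (log2 5.49 ± 0.12, SE, adjusted p 3.39e-51) and 48.1-fold more Hspa1b (5.59 ± 0.08, adjusted p 1.14e-63). Against Control, 5-FU+FMT was still 2.93-fold lower in Hspa1a (-1.55 ± 0.06, adjusted p 4.60e-37) and 3.04-fold lower in Hspa1b (-1.60 ± 0.04, adjusted p 1.31e-48).

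The 2 genes are near-identical copies, and of all distinct 150-base stretches of their annotated transcripts 46.0% for Hspa1a and 40.5% for Hspa1b also occur in another gene. The counted alignments are named as unique pairs in the file headers, with no option for multiply mapped reads, so pairs that fit both copies may be missing from the counts, and the level of each copy is uncertain. Hspa1b took 70.6% ± 0.363 of the pair's counts in Control, 67.9% ± 3.45 after 5-FU+Saline and 69.8% ± 0.491 after 5-FU+FMT (SD, n = 3). Summed into 1 gene, the pair was at 430.4 CPM ± 2.80 in Control, 3.01 ± 0.359 after 5-FU+Saline and 143 ± 9.02 after 5-FU+FMT. Its log2 fold change in 5-FU+Saline was -7.15 ± 0.06 (SE), close to that of either copy.

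Hspb1 (chr5:135887919-135889563, plus strand) encodes a small heat shock protein that holds unfolded proteins and binds actin. It was at 6.04, 5.04 and 6.45 CPM in Control, at 0.397, 0.255 and 0.310 after 5-FU+Saline and at 2.06, 1.54 and 2.60 after 5-FU+FMT. The groups did not overlap, but the 5-FU+Saline values rest on 6, 4 and 6 read pairs. Hspb1 was 18-fold lower in 5-FU+Saline than in Control (log2 -4.17 ± 0.35, SE, adjusted p 6.14e-18), and 6.34-fold higher in 5-FU+FMT than in 5-FU+Saline (2.66 ± 0.39, adjusted p 3.90e-08). It remained 2.84-fold below Control in 5-FU+FMT (-1.51 ± 0.26, adjusted p 1.40e-06). A share of 39.1% of its 150-base stretches is also found in Hsp25-ps1.

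Dnajb1 (chr8:83608193-83612653, plus strand) encodes the J-domain protein that delivers clients to HSP70 and starts its ATP cycle. It was at 289, 294 and 280.5 CPM in Control, at 100.01, 93.8 and 98.6 after 5-FU+Saline and at 158, 158 and 167 after 5-FU+FMT. Again Control was highest, 5-FU+Saline lowest and 5-FU+FMT between, with no overlap. Dnajb1 was 2.95-fold lower in 5-FU+Saline than in Control (log2 -1.56 ± 0.04, SE, adjusted p 3.28e-51), 1.65-fold higher in 5-FU+FMT than in 5-FU+Saline (0.72 ± 0.04, adjusted p 6.50e-28) and 1.79-fold lower in 5-FU+FMT than in Control (-0.84 ± 0.03, adjusted p 3.22e-34). None of its 150-base stretches occurs in another gene.

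Hsph1 (chr5:149614287-149636376, minus strand) encodes the HSP110 protein that swaps the nucleotide of HSP70 and so lets it release its client. Its levels were 195, 205 and 189 CPM in Control, 126, 121 and 119 after 5-FU+Saline and 137, 153 and 145 after 5-FU+FMT. The order was that of Dnajb1 and the groups did not overlap, yet the steps were small. Hsph1 was 1.61-fold lower in 5-FU+Saline than in Control (log2 -0.68 ± 0.04, SE, adjusted p 1.23e-26) and 1.19-fold higher in 5-FU+FMT than in 5-FU+Saline (0.25 ± 0.04, adjusted p 1.77e-07). It was 1.35-fold lower in 5-FU+FMT than in Control (-0.43 ± 0.04, adjusted p 5.07e-16).

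Hsp90aa1 (chr12:110690605-110702728, minus strand) encodes the HSP90 form that heat raises. It was at 920.0, 904 and 929 CPM in Control, at 1162, 1150.3 and 1169 after 5-FU+Saline and at 1066, 1057 and 1039 after 5-FU+FMT. Among the members grouped as inducible it alone was highest in 5-FU+Saline and lowest in Control. It was 1.26-fold higher in 5-FU+Saline than in Control (log2 0.34 ± 0.02, SE, adjusted p 2.66e-22), 1.10-fold lower in 5-FU+FMT than in 5-FU+Saline (-0.14 ± 0.02, adjusted p 6.14e-07) and 1.15-fold higher in 5-FU+FMT than in Control (0.20 ± 0.02, adjusted p 1.29e-11).

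The constitutive partner Hsp90ab1 (chr17:45567775-45573271, minus strand), the HSP90 that steadies kinases and receptors in unstressed cells, was at 2645, 2659 and 2599 CPM in Control, at 3366, 3324 and 3376 after 5-FU+Saline and at 3000.1, 2983 and 2925 after 5-FU+FMT. Its groups stood in the same order as those of Hsp90aa1, with no overlap. The rise in 5-FU+Saline was 1.27-fold (log2 0.35 ± 0.02, SE, adjusted p 1.70e-26), 5-FU+FMT was 1.13-fold below 5-FU+Saline (-0.18 ± 0.02, adjusted p 8.16e-12) and 1.13-fold above Control (0.17 ± 0.02, adjusted p 1.10e-11).

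Hspa8 (chr9:40800984-40810087, plus strand) encodes the constitutive HSP70, which folds new proteins and strips clathrin from vesicles. It was at 2028, 2004 and 2001 CPM in Control, at 2217, 2194 and 2196 after 5-FU+Saline and at 2125, 2058 and 2024 after 5-FU+FMT. Every 5-FU+Saline library lay above all others, while Control and 5-FU+FMT overlapped. Hspa8 was 1.10-fold higher in 5-FU+Saline than in Control (log2 0.13 ± 0.02, SE, adjusted p 1.06e-07) and 1.06-fold lower in 5-FU+FMT than in 5-FU+Saline (-0.09 ± 0.02, adjusted p 0.000357). In 5-FU+FMT against Control it was the 1 member not called (0.04 ± 0.02, adjusted p 0.105), with a 95% interval of the log2 fold change from -0.0003 to 0.083. That call turned on the processing: the log2 value was -0.02 with upper-quartile scaling (adjusted p 0.372) and 0.08 without the filter on low counts (adjusted p 0.000438). Without replicate 3 of 5-FU+FMT it was 0.06 (adjusted p 0.0176).

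Hspd1 (HSP60, chr1:55077835-55088243, minus strand) and Hspe1 (HSP10, chr1:55088132-55091307, plus strand) encode the barrel and the lid of the chaperonin that folds proteins inside mitochondria. Hspd1 was at 387, 374 and 393 CPM in Control, at 540.3, 535 and 559 after 5-FU+Saline and at 478, 474 and 463 after 5-FU+FMT, with no overlap of groups. Hspe1 was at 126, 121 and 118 CPM in Control, at 152, 141 and 151 after 5-FU+Saline and at 141, 129.6 and 127 after 5-FU+FMT. For Hspe1 every treated library lay above Control, and 5-FU+FMT overlapped 5-FU+Saline. Hspd1 was 1.42-fold higher in 5-FU+Saline than in Control (log2 0.50 ± 0.03, SE, adjusted p 1.30e-27), the largest rise among the members, and Hspe1 1.21-fold higher (0.28 ± 0.04, adjusted p 9.73e-09). In 5-FU+FMT against 5-FU+Saline, Hspd1 was 1.16-fold lower (-0.21 ± 0.03, adjusted p 8.62e-10) and Hspe1 1.11-fold lower (-0.16 ± 0.04, adjusted p 0.00125). In 5-FU+FMT against Control, Hspd1 was 1.23-fold higher (0.29 ± 0.03, adjusted p 4.50e-15) and Hspe1 1.09-fold higher (0.12 ± 0.04, adjusted p 0.0119). The last call was lost with upper-quartile scaling (adjusted p 0.266), with a stricter filter on low counts (0.0555), without replicate 3 of Control (0.0819) and without replicate 1 of 5-FU+FMT (0.184). The 2 genes share 112 exon bases on opposite strands, and with no strand option in the file headers, reads there cannot be given to one of them.

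**Figure D2:**
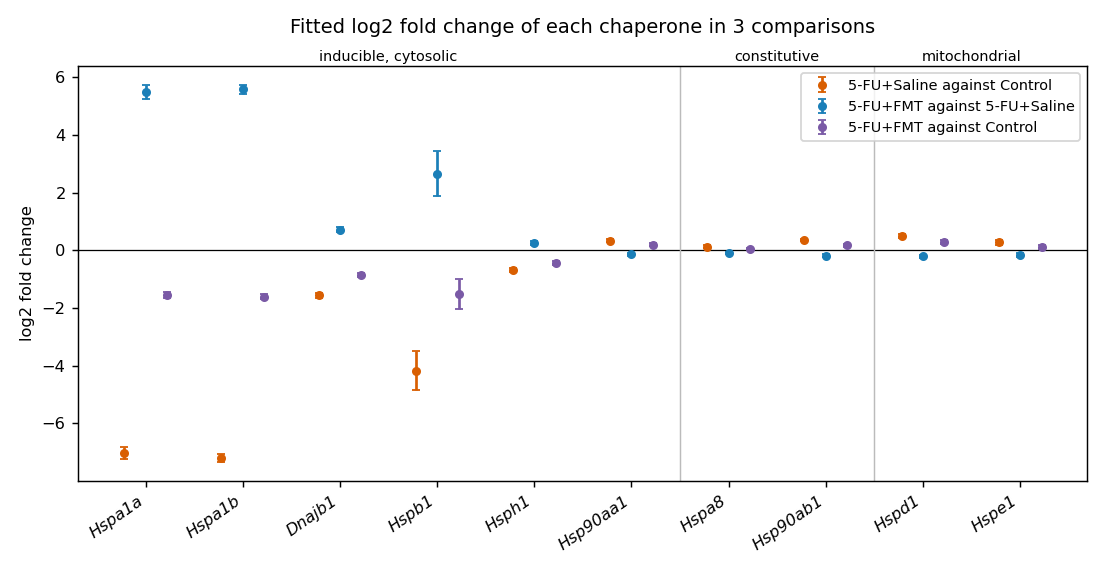
Fitted log2 fold change of each chaperone in the 3 comparisons, with bars for an approximate 95% interval. The first 5 genes fell in 5-FU+Saline against Control and were higher in 5-FU+FMT than in 5-FU+Saline, and the other 5 did the reverse with sizes of at most 0.50.

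Counting limits also touch other members. Of the distinct 150-base stretches, 28.5% of Hsp90aa1, 23.0% of Hspa8, 16.1% of Hspd1 and 6.64% of Hspe1 occur in other genes, and none of Hsph1 or Hsp90ab1 does. Of the pseudogenes named by a member symbol followed by -ps or -rs, only Hspd1-ps3 passed the filter. It was at 7.24 CPM in Control, 7.52 after 5-FU+Saline and 11.5 after 5-FU+FMT, small beside Hspd1 itself. Pseudogenes of members under other names, Hsp25-ps1 among them, were not looked up. Exons of Hspa1a overlap Gm20481, on the opposite strand, by 564 bases, and Gm20481 had 0 counts over the 9 libraries.

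Levels of different genes were compared per kilobase of exon. Hsp90ab1 was highest in every group, at 878 CPM per kilobase ± 10.5 in Control, 1119 ± 9.20 after 5-FU+Saline and 990.1 ± 13.1 after 5-FU+FMT (SD, n = 3). Hspa8 came next (468 ± 3.37, 512 ± 2.97 and 481 ± 12), followed by Hsp90aa1 (233 ± 3.20, 295 ± 2.44 and 268 ± 3.48) and Hspd1 (146 ± 3.75, 206 ± 4.64 and 179 ± 3.06), and these first 4 places were the same in all 3 groups. The order below them changed. In Control, Hspa1b came after Hspd1 at 108 CPM per kilobase ± 1.22, ahead of Dnajb1 (89.9 ± 2.2), Hspe1 (82.7 ± 2.70), Hspa1a (42.6 ± 0.326), Hsph1 (27.0 ± 1.12) and Hspb1 (5.67 ± 0.702). In 5-FU+Saline, Hspe1 came after Hspd1 at 100.2 ± 4.14, and Hspa1b was at 0.730 ± 0.117, behind Dnajb1 (30.4 ± 1.02) and Hsph1 (16.8 ± 0.473). Hspa1a (0.323 ± 0.0294) and Hspb1 (0.311 ± 0.0695) closed that order and were the only neighbours in any group whose libraries overlapped. In 5-FU+FMT, Hspa1b (35.7 ± 2.05) stood between Dnajb1 (50.2 ± 1.56) and Hsph1 (19.98 ± 1.08), with Hspa1a at 14.6 ± 1.12.

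Ratios within a library compare genes free of library scaling. For HSP70 and HSP90 they set an inducible against a constitutive form. Hspe1 over Hspd1 sets the mitochondrial members against each other. The counts of Hspa1a plus Hspa1b were 21.1%, 21.6% and 21.5% of those of Hspa8 in Control, 0.140%, 0.119% and 0.150% after 5-FU+Saline and 6.38%, 6.87% and 7.57% after 5-FU+FMT. No groups overlapped, and the ratio was 158-fold lower in 5-FU+Saline than in Control, 51.0-fold higher in 5-FU+FMT than in 5-FU+Saline, and 3.09-fold lower in 5-FU+FMT than in Control. Each of these 3 differences had an exact two-sided permutation p of 0.1, the smallest that 3 libraries against 3 allow, and 0.15 after adjustment over 9 ratio tests. For HSP90, the counts of Hsp90aa1 were 34.8% ± 0.872 of those of Hsp90ab1 in Control, 34.6% ± 0.0589 after 5-FU+Saline and 35.5% ± 0.0591 after 5-FU+FMT (SD, n = 3). Control overlapped both treated groups (exact permutation p 0.7 for 5-FU+Saline and 0.4 for 5-FU+FMT), and the 5-FU+FMT libraries lay 1.03-fold above 5-FU+Saline without overlap (exact permutation p 0.1, adjusted 0.15). Hspe1 counts were 31.7% ± 1.37 of those of Hspd1 in Control, 27.1% ± 0.918 after 5-FU+Saline and 28.1% ± 1.24 after 5-FU+FMT. Control was above both treated groups without overlap (exact permutation p 0.1, adjusted 0.15), and the treated groups overlapped (exact permutation p 0.4).

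**Figure D3:**
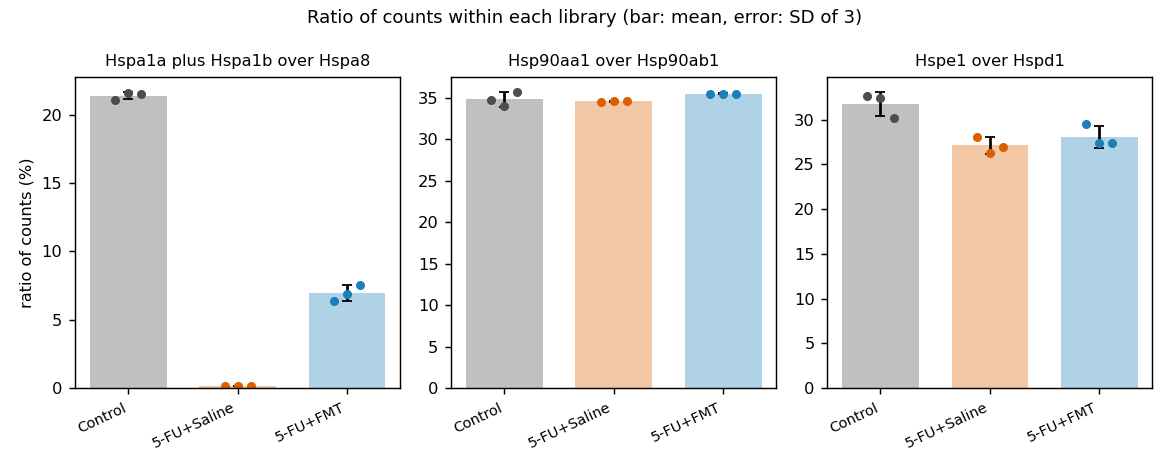
Ratio of counts within each library, in percent, for Hspa1a plus Hspa1b over Hspa8, Hsp90aa1 over Hsp90ab1 and Hspe1 over Hspd1, with bars for the mean, error bars for the SD and points for the 3 libraries of a group. The HSP70 ratio goes from 21.4% to 0.137% and 6.94%, while the HSP90 ratio stays between 34.0% and 35.7% in all libraries.

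Together the 10 members took 0.687% ± 0.00391 of all counts in Control, 0.766% ± 0.00478 after 5-FU+Saline and 0.721% ± 0.00955 after 5-FU+FMT (SD, n = 3). Hsp90ab1 and Hspa8 alone took 0.456%, 0.558% and 0.508%. The 6 inducible members made up 26.3% ± 0.122 of the members' counts in Control, 18.1% ± 0.0303 after 5-FU+Saline and 21.1% ± 0.352 after 5-FU+FMT. Hsp90aa1 was the highest of these 6, at means of 918, 1160.5 and 1054 CPM. The share thus joins its rise in 5-FU+Saline with the falls of the other 5, and with the rise of the constitutive and mitochondrial members. By groups, 5 members (Hspa1a, Hspa1b, Dnajb1, Hspb1 and Hsph1) had all Control libraries above all 5-FU+FMT libraries and these above all 5-FU+Saline libraries, an order that 14.9% of all genes tested showed. The reverse order, without overlap, held for Hsp90aa1, Hsp90ab1 and Hspd1 and for 17.3% of all genes.

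How far 5-FU+FMT lay from 5-FU+Saline toward Control was put on a linear CPM scale, with the 5-FU+Saline mean at 0% and the Control mean at 100%, a measure chosen after values were seen. The 5 members that were lower in 5-FU+Saline fell close together: Hspa1a at 33.7% ± 2.64, Hspa1b at 32.5% ± 1.91, Dnajb1 at 33.2% ± 2.62, Hspb1 at 31.6% ± 9.55 and Hsph1 at 31.5% ± 10.6 (SD of 3 5-FU+FMT libraries). These genes had fallen by 1.61-fold to 146-fold, so a like position on the linear scale went with very different folds between 5-FU+FMT and 5-FU+Saline. Among 1643 genes called lower in 5-FU+Saline by at least 0.5 on the log2 scale, with at least 10 CPM in a group, the median position was 38.8% (quartiles 31.8% and 46.2%), so the 5 chaperones lay near the lower quartile. The members higher in 5-FU+Saline lay at 43.8% ± 5.63 (Hsp90aa1), 45.6% ± 5.05 (Hspd1), 53.6% ± 5.45 (Hsp90ab1), 58.9% ± 29.5 (Hspe1) and 69.6% ± 26.9 (Hspa8), and the last 2 rest on small differences. The median of 3528 genes higher by at least 0.25 was 44.1%. All positions use the same 5-FU+Saline and Control means and are given without a test.

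**Figure D4:**
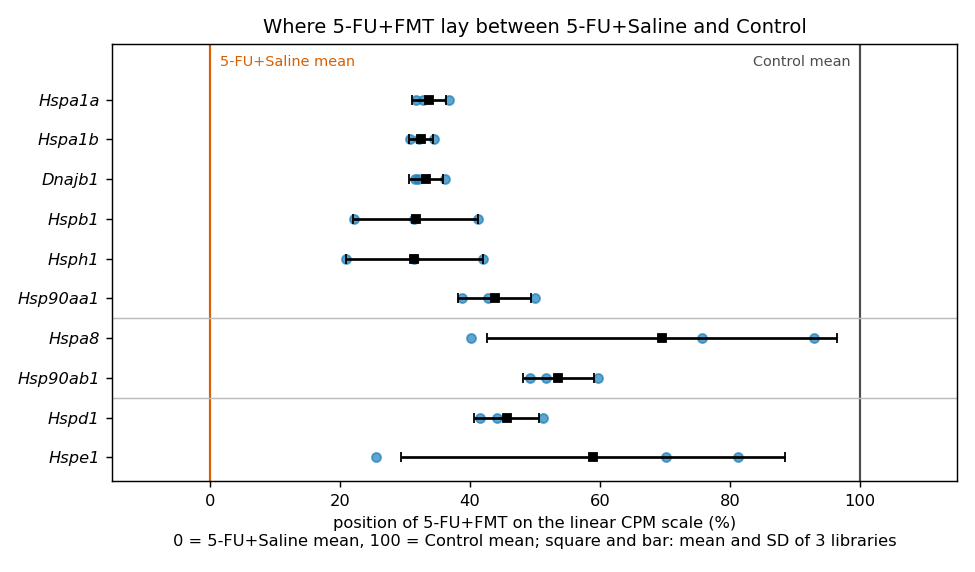
Position of each 5-FU+FMT library (round points) between the 5-FU+Saline mean (0%) and the Control mean (100%) on the linear CPM scale, with squares for the mean and bars for the SD of 3 libraries. The 5 genes at the top lie near 31.5% to 33.7%, and the positions of Hspa8 and Hspe1 are wide.

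The list of heat shock factors held 4 tested genes (5 listed), the factors Hsf1, Hsf2 and Hsf4 and the HSF1-binding Hsbp1. In 5-FU+Saline against Control, Hsf1 and Hsf4 were lower, Hsbp1 was higher and Hsf2 was not called, and the same held in 5-FU+FMT against Control. Hsf4 was at a very low level, 1.63 CPM ± 0.176 in Control, 0.822 ± 0.491 after 5-FU+Saline and 0.780 ± 0.178 after 5-FU+FMT. Its calls against Control were near the threshold (adjusted p 0.0385 for 5-FU+Saline and 0.0461 for 5-FU+FMT). Between 5-FU+FMT and 5-FU+Saline 0 of the 4 were called. For this and every count of 0 among the lists below, edgeR gave 0 at an unadjusted p under 0.05 as well, and DESeq2 and limma-voom called 0. Hsf1, the main activator of heat-induced chaperone genes, was at 90.6 CPM ± 2.85 in Control, 81.8 ± 2.19 after 5-FU+Saline and 83.8 ± 1.44 after 5-FU+FMT (SD, n = 3). It was 1.11-fold lower in 5-FU+Saline than in Control (adjusted p 0.00496) and 1.08-fold lower in 5-FU+FMT (adjusted p 0.0428), and 5-FU+FMT was not called against 5-FU+Saline (adjusted p 0.633). Hsf2 was at 22.8 ± 1.29, 20.3 ± 0.896 and 22 ± 1.34 CPM and was called in none of the comparisons (adjusted p 0.0886, 0.337 and 0.644). Hsbp1, which encodes a protein that binds HSF1 and restrains it, rose 1.36-fold in 5-FU+Saline (adjusted p 2.04e-11). RNA levels of these factors do not measure their activity, which is set largely on the protein.

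Of 21 other heat-inducible genes tested (23 listed), 8 were higher, 8 lower and 5 not called in 5-FU+Saline against Control, with a median log2 fold change of -0.16 beside -0.02 for all genes. The 8 that fell included Dnaja1, a J-domain partner of HSP70 (465 CPM ± 2.31 in Control, 318 ± 6.69 in 5-FU+Saline, 1.46-fold, adjusted p 1.52e-29). The 8 that rose included Stip1, which links HSP70 to HSP90 (141 ± 4.58 to 248.7 ± 5.99 CPM, 1.75-fold, adjusted p 3.83e-34), and Cacybp (85.9 ± 1.32 to 146 ± 2.73 CPM, 1.70-fold, adjusted p 3.21e-27). Bag3, an HSF1 target that steers clients to autophagy, was at 17.2 ± 1.57, 17.3 ± 1.69 and 15.4 ± 1.09 CPM in Control, 5-FU+Saline and 5-FU+FMT and was not called (adjusted p 0.888, 0.208 and 0.252), and it is named here after its values were seen. Between 5-FU+FMT and 5-FU+Saline 6 of the 21 were higher in 5-FU+FMT, 6 lower and 9 not called. Dnajb4 rose 1.65-fold there (30.3 ± 2.49 to 49.7 ± 4.25 CPM, adjusted p 2.71e-14), and Hmox1, the heme oxygenase gene, fell 2.70-fold (18.9 ± 1.98 to 6.99 ± 0.565 CPM, adjusted p 2.34e-15). Compared with Control, in 5-FU+FMT 6 were higher, 8 lower and 7 not called.

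Of 15 J-domain genes, partners of HSP70, 6 were higher, 7 lower and 2 not called in 5-FU+Saline against Control (median log2 -0.02, beside -0.02 for all genes), with Dnajb4 2.46-fold lower (74.2 ± 6.22 to 30.3 ± 2.49 CPM, adjusted p 1.04e-28) and Dnajc9, a chaperone of histones, 1.99-fold higher (83.7 ± 3.36 to 166 ± 1.14 CPM, adjusted p 1.10e-34). Between 5-FU+FMT and 5-FU+Saline 5 were higher in 5-FU+FMT, 6 lower and 4 not called. Of 12 exchange factors and cofactors of HSP70, 6 were higher, 1 lower and 5 not called in 5-FU+Saline against Control (median log2 0.18). St13, which steadies the client-bound state, rose 1.58-fold (152 ± 9.03 to 239 ± 8.07 CPM, adjusted p 1.52e-27), and Hspa4, an HSP110 relative of Hsph1, rose 1.42-fold (296 ± 6.37 to 419 ± 3.04 CPM, adjusted p 1.92e-26), against the 1.61-fold fall of Hsph1. From 5-FU+Saline to 5-FU+FMT 0 of these 12 were higher, 5 lower and 7 not called (median -0.11).

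The partners of HSP90 and the other chaperonin genes mostly moved the way Hsp90ab1 and Hspd1 did. Of 15 HSP90 cochaperones, 11 were higher, 3 lower and 1 not called in 5-FU+Saline against Control (median log2 0.22), and in 5-FU+FMT against 5-FU+Saline 0 were higher, 9 lower and 6 not called (median -0.16). Nudc, for example, went from 153 CPM ± 3.46 in Control to 258 ± 3.98 after 5-FU+Saline and 207 ± 1.91 after 5-FU+FMT (1.68-fold up, adjusted p 3.20e-33, then 1.25-fold down, adjusted p 9.23e-14). Of 14 genes of the cytosolic chaperonin CCT, which folds actin and tubulin, and of prefoldin, which hands clients to it, 13 were higher, 0 lower and 1 not called in 5-FU+Saline (median log2 0.53), and 0 were higher, 10 lower and 4 not called in 5-FU+FMT against 5-FU+Saline (median -0.22). The CCT subunit Tcp1 went from 217 ± 0.861 to 377 ± 12 and 300 ± 8.28 CPM (1.74-fold up, adjusted p 7.32e-37, then 1.26-fold down, adjusted p 1.09e-15). Of 17 other mitochondrial chaperones and proteases, 12 were higher, 0 lower and 5 not called in 5-FU+Saline (median 0.27), and 0 were higher, 7 lower and 10 not called in 5-FU+FMT against 5-FU+Saline (median -0.10). The mitochondrial HSP70 gene Hspa9 went from 356 ± 0.612 to 555 ± 4.90 and 467 ± 10.4 CPM (1.56-fold up, adjusted p 1.98e-34, then 1.19-fold down, adjusted p 8.15e-13). In 5-FU+FMT against Control the counts higher, lower and not called were 5, 6 and 4 for J-domain genes, 6, 1 and 5 for HSP70 exchange factors and cofactors, 9, 1 and 5 for HSP90 cochaperones, 12, 0 and 2 for CCT and prefoldin and 9, 0 and 8 for other mitochondrial chaperones and proteases. These lists share some genes, Stip1, Dnaja1 and Dnajb4 among them, so their counts are not independent. For all genes tested, 32.8% were called higher and 32.7% lower in 5-FU+Saline against Control. In 5-FU+FMT against 5-FU+Saline 17.7% were higher and 19.2% lower, and in 5-FU+FMT against Control 25% were higher and 21.6% lower.

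**Figure D5:**
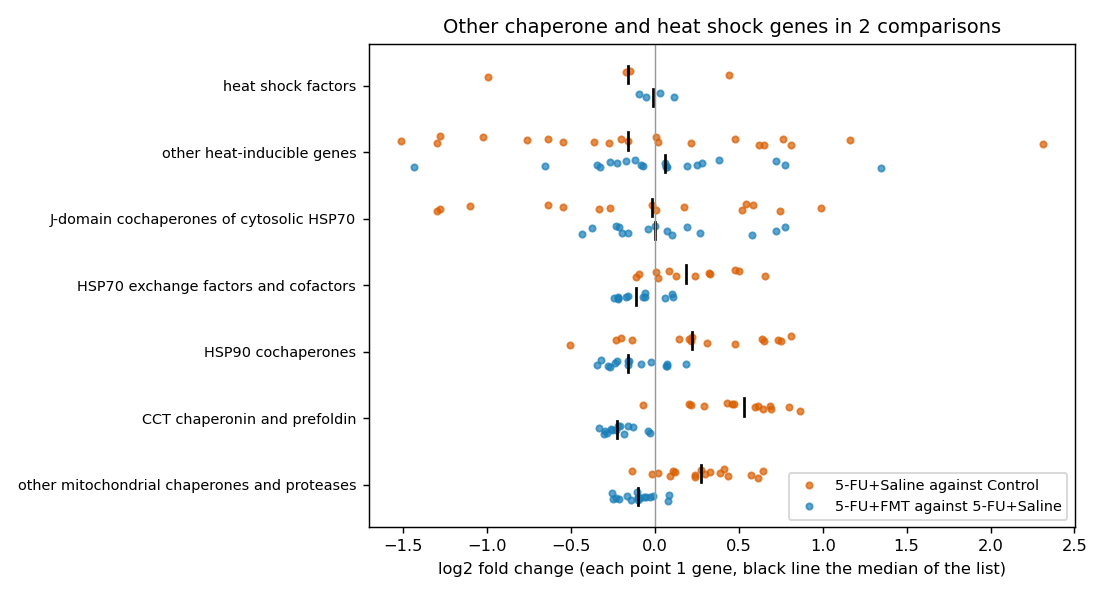
Log2 fold change of each gene (points) in 7 lists of chaperone and heat shock genes, for 5-FU+Saline against Control and for 5-FU+FMT against 5-FU+Saline, with the median of each list as a black line. The medians of the CCT and prefoldin list are 0.53 and -0.22, and heat-inducible and J-domain genes lie on both sides of 0.

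Immediate early genes, which respond within minutes to growth signals and to handling of cells, moved in the direction of Hspa1a, Hspa1b, Dnajb1, Hspb1 and Hsph1, and opposite to Hsp90aa1. All 20 of 20 were called lower in 5-FU+Saline than in Control, higher in 5-FU+FMT than after 5-FU+Saline and lower after 5-FU+FMT than in Control. Of all genes tested, 32.7%, 17.7% and 21.6% were called in these directions. Their summed level was 30121 to 30261 CPM in Control, 4756 to 4821 after 5-FU+Saline and 13014 to 14211 after 5-FU+FMT. Fos was at 3617 ± 59.0, 488 ± 3.36 and 1571 ± 64.7 CPM, Jun at 4009 ± 7.80, 404 ± 9.29 and 1730 ± 106 CPM and Egr1 at 2447 ± 15.1, 247 ± 7.43 and 948 ± 47.7 CPM (SD, n = 3). On the linear scale between 5-FU+Saline and Control, 5-FU+FMT lay at 34.6% ± 2.07 for Fos, 36.8% ± 2.94 for Jun and 31.9% ± 2.17 for Egr1, next to the 33.7% of Hspa1a. Such positions were not particular to these genes. The 611 genes called at least 2-fold lower in 5-FU+Saline, with at least 10 CPM in a group, had a median of 37.5% (quartiles 33.2% and 43.0%). With the same cut on level, 9 called erythroid markers had a median of 34.7%. The 4 neutrophil markers called lower in 5-FU+Saline had a median of 35.6%. The 5 neutrophil markers called higher there were under 10 CPM and are not in that median. The part of the immediate early response in the chaperone results was not tested.

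The genes whose pattern over the 9 libraries was most like that of Hspa1a plus Hspa1b, by Pearson's r of log2(CPM + 0.5) among 9976 genes, were Atp1b2, Elane, Ccl3, Sphk1 and Mpo, each with r of 0.999. Elane, the neutrophil elastase gene, was at 397 CPM ± 5.72 in Control, 5.02 ± 0.746 after 5-FU+Saline and 140 ± 11.8 after 5-FU+FMT, and Mpo, the myeloperoxidase gene, at 1277 ± 0.836, 29.9 ± 1.14 and 469 ± 27.9 CPM. Both are on the neutrophil marker list given above, which was mixed. Of its 10 genes, 4 were lower in 5-FU+Saline than in Control, Elane and Mpo among them, and 5 were higher. Among the genes most like Hspd1 were Ptges3-ps, Eif4h, Capzb and Gins2, with r of 0.997 to 0.998. Eif4h, a translation initiation factor gene, was at 325 ± 8.69, 527 ± 4.22 and 432 ± 8.22 CPM. The libraries form 3 tight groups, so such an r describes 3 group levels and is given without a p.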

How the data were processed

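The submitters' processing notes name Trim Galore 0.6.5, HISAT2 2.2.1, the build mm10, featureCounts 2.0.1 and SAMtools. The deposited values are raw read counts per gene in a table for each of 9 libraries: per the file headers, read pairs over exons of GENCODE M25, from alignments named as unique pairs, with no strand or multi-mapping option. Of 56262 identifiers, 55141 matched a symbol.

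From these counts, filterByExpr kept 16595 genes, TMM scaled the libraries, and edgeR 4.0.16 (limma 3.58.1, R 4.3.3) fitted the 3 groups together with its quasi-likelihood test and Benjamini-Hochberg adjustment over all genes of a comparison. CPM are counts scaled to the TMM-adjusted size of the filtered library. The common biological coefficient of variation was 3.74%. SEs were derived from the fold change and the F value, and intervals are normal approximations at 95%. The fit was tested on simulated data with 200 changed genes. Ratios were compared by exact permutation tests. Shared stretches of 150 bases were counted in GENCODE M21 transcripts, another release than that of the counts. Python 3.11.15 with numpy 2.4.6 and pandas 2.3.3 made the tables, and matplotlib 3.10.9 the figures.

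The members, gene lists and promoter rule were chosen with earlier results of these data known. Genes named are the members, Hsf1, Hsf2, Fos, Jun, Egr1, Xist and Ddx3y, per list and comparison up to 4 called genes with the smallest p (2 in each direction), and the 5 genes nearest in pattern. Some of the genes within that rule are not reported here, and promoter lines of Hspa1a, Hspa1b, Hspb1 and Dnajb1 lie outside it. Protein sequences were not used here. The alternatives were RLE and upper-quartile factors, DESeq2 1.42.0, limma-voom, no filter, a stricter filter (at least 10 CPM in 3 libraries), only the 2 groups compared, a replicate block, Hspa1a and Hspa1b summed, and each library left out in turn.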

Additional observations from a re-analysis of the deposited data

How the results depend on the processing

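Of 513 member fold changes under alternatives, 504 kept their direction and their side of the threshold. The other 9 all concerned 5-FU+FMT against Control: Hspa8 changed sign with upper-quartile factors (log2 -0.0246, adjusted p 0.372, not called) and was called under 4 alternatives, and Hspe1 lost its call under 4. Called genes numbered 7892 to 11072 in 5-FU+Saline against Control, 5169 to 6254 in 5-FU+FMT against 5-FU+Saline and 6371 to 7874 in 5-FU+FMT against Control, and called members 9 to 10, 9 to 10 and 7 to 10. In 5-FU+FMT against Control, 4151 genes were higher and 3584 lower, against 3315 and 4559 with upper-quartile factors. The log2 ratio of Hsp90aa1 to Hsp90ab1 in 5-FU+Saline against Control ran from -0.0277 to 0.0083 as libraries were left out, and its sign turned without replicate 3 of Control (0.0083). The cause was not tested. The stricter filter removed Hspb1, so it gave no value for it.

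Same-numbered libraries of different groups did not deviate together (correlations from -0.017 to 0.019 in 9 pairs). These correlations gave no sign of pairing by number, but with 3 libraries per group they cannot exclude pairing or a shared batch. With the replicate block 10847, 6193 and 7717 genes were called in the 3 comparisons, against 10872, 6123 and 7735 without it, and 10 members in each, Hspa8 being added in 5-FU+FMT against Control (adjusted p 0.0492). Depth limits Hspb1, Hspa1a and Hspa1b in 5-FU+Saline most, where 4 to 46 read pairs per library stand behind a value.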
